A study of Mus musculus with 6 samples.

Results

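Neonatal cardiac fibroblasts (NFs) taken from co-culture with immature cardiomyocytes (imCMs) were compared with the wells of the same chip named NF0, to ask which fibroblast genes differed between these conditions. A well was kept when it held at least 500 genes outside the mitochondrial genome and more unique molecular identifiers (UMIs, 1 per captured transcript) of Col1a1, Col1a2, Col3a1, Dcn, Postn and Lum together than of Tnnt2, Tnni3, Myh6, Actc1 and Tnnc1 together. This rule kept 484 of 613 neonatal fibroblast wells, out of 1063 wells with counts on the fibroblast chip and 2482 on both chips of the series. The 200 co-culture wells carried the names NF1 (126 wells) and NF2 (74 wells) in the chip report, and the 284 NF0 wells carried the names NF0_1 (150 wells) and NF0_2 (134 wells). Each of these names is called a Type value here and stands for 1 location of the plate from which the chip was filled.

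All cells came from C57BL/6 mice, and the chip is 1 library labelled fibroblasts. Per the methods of the study, the fibroblasts came from newborn hearts and had been passaged before they were plated with imCMs of newborn hearts in medium with serum. Cells of the co-cultures were dyed and sorted before they were loaded on the nanowell chip. The methods do not say whether NF0 cells were handled the same way. What the 0 in NF0 stands for is not given in the sources used here, so NF0 is not called a monoculture. Whether NF1 and NF2, or NF0_1 and NF0_2, came from separate cultures is also not given, so all p-values below measure only the spread between Type values, which may be technical. Adult fibroblasts (AFs) on the same chip were 239 co-culture wells (AF1, AF2) and 191 AF0 wells. They served to ask whether a difference was particular to NFs. They were also in the fit of the neonatal contrast, so the spread behind the neonatal p-values was estimated with them.

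Fibroblasts build and remodel the extracellular matrix of the heart, through collagens, the enzymes that crosslink them and the proteoglycans between them. They also act as sentinel cells: signals that release the transcription factor NF-kB from its inhibitors switch on chemokines, small secreted proteins that draw in neutrophils and monocytes. Among the genes NF-kB switches on are those of its own inhibitors, which limit the response.

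The UMI sums of the kept wells were 3500321 in NF1, 2647039 in NF2, 4385988 in NF0_1 and 12921258 in NF0_2. The median well held 14664, 25247, 18915 and 70873 UMIs in that order, so NF0_2 was the deepest and its counts the most precise. NF0_2 also stood apart in its mitochondrial share (4.97% against 7.45% to 7.79%) and in its share of aligned read pairs (75.9% against 65.5% to 66.8%). Fibroblast genes of the rule are high by selection, although Lum stayed between 7.71 and 18.7 CPM (UMIs of a gene per 1000000 UMIs) and Tcf21, a fibroblast marker the rule did not use, lay between 34.1 and 49.7 CPM. NF2 stood apart in the single gene Gm42418, named after its values were seen. After TMM scaling it measured 113460 CPM in NF2, 54009 CPM in NF1, and 44436 and 36368 CPM in NF0_1 and NF0_2. The 5 cardiomyocyte genes of the rule summed to 28.7%, 37.0%, 33.0% and 34.5% of the fibroblast sum in NF1, NF2, NF0_1 and NF0_2, and Tnnt2 made up between 83.2% and 91.9% of that cardiomyocyte sum, against 39.5% in 486 wells of the cardiomyocyte chip. The 14 endothelial markers summed to 353 and 267 CPM in co-culture and 175 and 186 CPM in NF0, with Kdr at 0 in NF2. The 12 macrophage markers summed to 222 and 367 CPM in co-culture and 174 and 1113 CPM in NF0, so NF0_2 was again apart, and of the defining ones C1qa, Csf1r and Adgre1 lay between 0.857 and 12.8 CPM in all 4 Type values. Type values of 1 group differed by more than sampling noise (chi-square divided by its degrees of freedom, 24.7 for co-culture and 17.8 for NF0), and each was counted as 1 sample.

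UMIs were summed per Type value (n = 2 per group) and tested by edgeR's quasi-likelihood test, with a gene called where its Benjamini-Hochberg adjusted p was below 0.05 and its log2 fold change exceeded 0.58 in size. Expression of 32 of 13917 genes was called different between co-culture and NF0 wells (0.23%), of which 23 were higher in co-culture (0.165%) and 9 lower (0.0647%). The 23 included 5 chemokine genes, the NF-kB inhibitor gene Nfkbia, the NF-kB regulator gene Nfkbiz and the adhesion gene Vcam1, and the 9 included the collagen-modifying enzyme genes Lox and Plod2, the collagen gene Col6a2 and the matricellular gene Ccn5. At an unadjusted p under 0.05 there were 1563 genes (11.2%), and DESeq2 called 325, among them all 32. Over all genes tested, the log2 fold change had a median of -0.03. The fit also held the adult sums, and with the neonatal Type values alone 4 genes were called, all among the 32. The count moved with the Type values used: it was 61 without NF1, 21 without NF2, 3 without NF0_1 and 7 without NF0_2. The 3 genes called without NF0_1 were Ccl2, Ccl7 and Cxcl1, which were called in each of the 4 leave-out fits, and each other call given below was lost without NF0_1.

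**Figure D1:**
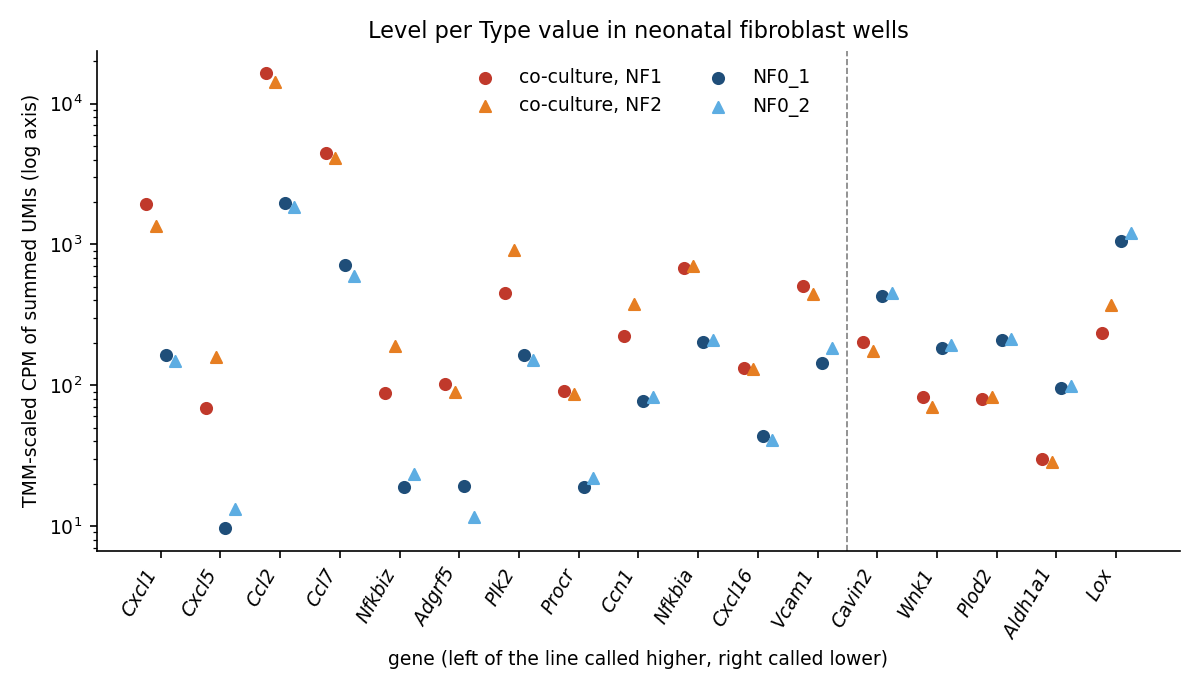
Level of the genes with the 12 largest called rises and the 5 called falls at a mean of at least 50 CPM, in CPM after TMM scaling (log axis), with 1 point per Type value; genes left of the dashed line were called higher and genes right of it lower. The genes were also selected for groups that do not overlap, so both co-culture points lie on one side of both NF0 points by selection. Examples are Cxcl1 (1361 against 163 CPM for the nearest pair) and Lox (373 against 1063 CPM).

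The 4 largest called rises among genes of at least 50 CPM on average were those of the chemokine genes Cxcl1, Cxcl5, Ccl2 and Ccl7. Of 13 chemokine genes tested, edgeR and DESeq2 each called 5 higher and 0 lower (7 and 0 at an unadjusted p under 0.05), and the median log2 fold change was 1.90, beside -0.03 over all genes. Both co-culture values lay above both NF0 values in 8 of the 13, against 17.7% of all genes. Summed over the list, chemokine transcripts made up 23293 and 20418 CPM in NF1 and NF2 and 3126 and 2903 CPM in NF0_1 and NF0_2.

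Ccl2 (ENSMUSG00000035385, GRCm38 chr11:82035571-82037453), which encodes a chemoattractant for monocytes, measured 16379 and 14366 CPM in NF1 and NF2 and 1978 and 1833 CPM in NF0_1 and NF0_2. Both co-culture values were far above both NF0 values, and values within a group lay close together. The difference was 8.07-fold, a log2 difference of 3.01 ± 0.18 (± SE here and below, over 2 Type values a group; edgeR adjusted p 7.00e-05). Ccl2 was called in all 20 settings in which it was tested, with log2 fold changes between 2.87 and 4.19. Its locus overlaps the annotated Gm17268, and use of strand in counting is not stated, so reads of such overlapping genes cannot be told apart.

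The neighbouring Ccl7 (ENSMUSG00000035373, chr11:82045712-82047525), another monocyte chemoattractant gene, measured 4466 and 4089 CPM in NF1 and NF2 and 709.5 and 595 CPM in NF0_1 and NF0_2. The groups did not overlap, and the log2 fold change was 2.71 ± 0.20 (edgeR adjusted p 4.34e-04). Cxcl1 (ENSMUSG00000029380, chr5:90891241-90893115), which encodes an attractant of neutrophils, measured 1927 and 1361 CPM in co-culture and 163 and 148 CPM in NF0. Cxcl1 was higher in co-culture by 3.40 ± 0.20 on the log2 scale (edgeR adjusted p 7.00e-05), or 10.6-fold.

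Cxcl5 (chr5:90759360-90761624), a related neutrophil attractant gene, was less abundant, at 69.0 and 159 CPM in co-culture and 9.65 and 13.1 CPM in NF0. NF2 held more than NF1, and both lay above NF0, for a log2 difference of 3.28 ± 0.44 (edgeR adjusted p 0.0249). The 5 wells with most Cxcl5 UMIs held 79.9% and 56.3% of its UMIs in NF1 and NF2. Cxcl16 (chr11:70453983-70459984), which encodes a membrane-bound chemokine and overlaps Zmynd15, measured 132 and 130.3 CPM against 43.8 and 41.0 CPM (log2 fold change 1.63 ± 0.20, edgeR adjusted p 0.0135).

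The other 8 chemokine genes did not pass the test. Among them, Cxcl2 measured 59.1 and 108 CPM in co-culture and 3.06 and 39.8 CPM in NF0, with NF0_1 far below NF0_2 (log2 fold change 1.90 ± 0.83, edgeR adjusted p 0.435). Cxcl2, Cxcl10, Ccl5 and Ccl8 are named here after their values were seen. Cxcl10, an interferon-induced chemokine gene, stayed between 0.706 and 5.09 CPM in the 4 Type values. Ccl5 measured 44.6 and 14.2 CPM in co-culture and 0.235 and 10.6 CPM in NF0, and Ccl8 1.81 and 12.2 CPM and 0.471 and 1.52 CPM, each with a wide spread within a group.

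The differences of Ccl2 and Cxcl1 were also seen in the median well, although the 5 richest wells held 42.3% and 28.5% of all Ccl2 UMIs in NF1 and NF2. To compare wells at one depth, each was thinned to 10000 UMIs, which kept 80, 58, 111 and 132 wells in NF1, NF2, NF0_1 and NF0_2. A Cxcl1 UMI was then found in 90.0% and 93.1% of NF1 and NF2 wells and 30.6% and 43.9% of NF0_1 and NF0_2 wells (unthinned 87.3% and 94.6% and 39.3% and 67.2%). Ccl2 was found in 100% of co-culture wells of both Type values and in 83.8% and 85.6% of NF0_1 and NF0_2 wells (unthinned 87.3% and 96.3%).

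The median Ccl2 level of a well was 9763 and 11302 CPM in NF1 and NF2 and 407 and 547 CPM in NF0_1 and NF0_2. The median well of NF0_1 held no Cxcl1 UMI and that of NF0_2 27.0 CPM, against 805 and 948 CPM in NF1 and NF2. Without the wells marked by endothelial or macrophage genes, a setting added after seeing the data, the log2 fold changes were 2.87 for Ccl2, 3.33 for Cxcl1 and 2.46 for Ccl7 (edgeR adjusted p 1.33e-04, 1.78e-04 and 0.00240). Cxcl16 stayed called in that setting (log2 fold change 1.73, edgeR adjusted p 0.0336), while Cxcl5 did not (3.06, edgeR adjusted p 0.186).

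**Figure D2:**
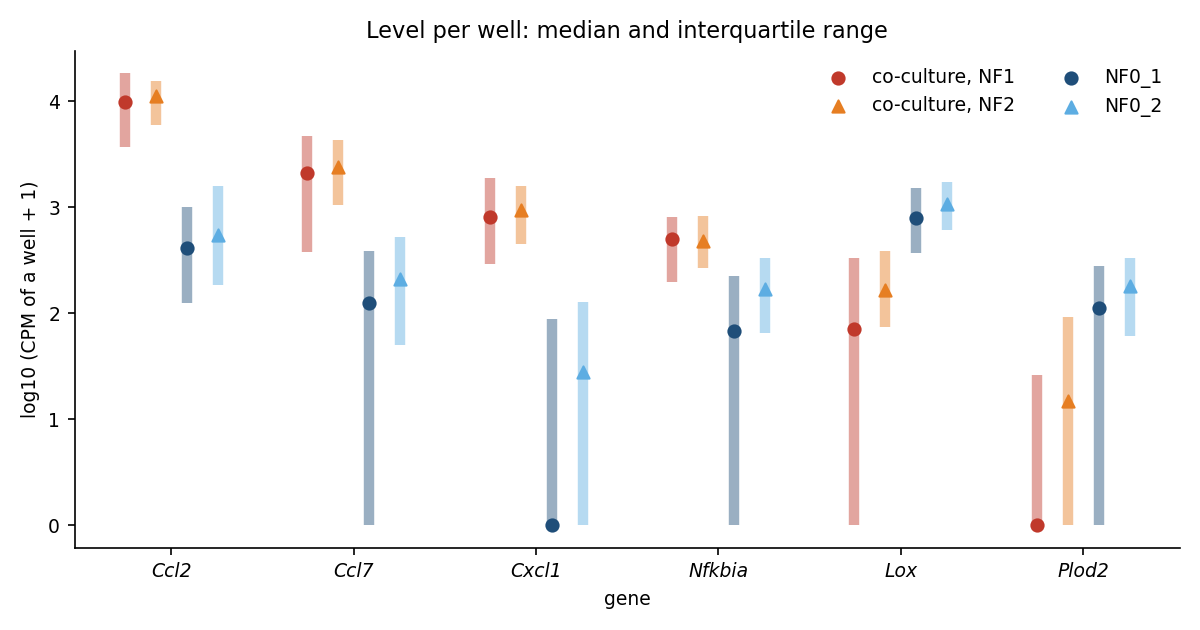
Level of 6 genes per well, as log10 of CPM plus 1, with the median (symbol) and interquartile range (bar) over the kept wells of each Type value. The co-culture medians of Ccl2, Ccl7, Cxcl1 and Nfkbia lie above both NF0 medians and those of Lox and Plod2 below them, as for Ccl2 with 9763 CPM and 11302 CPM against 407 CPM and 547 CPM.

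Nfkbia and Nfkbiz, which encode regulators of NF-kB, were called higher. Nfkbia (ENSMUSG00000021025, chr12:55489410-55492647), which encodes the inhibitor that holds NF-kB in the cytoplasm, measured 677 and 706 CPM in co-culture and 202 and 209.6 CPM in NF0. Its values within each group nearly coincided, and the log2 fold change was 1.75 ± 0.15 (edgeR adjusted p 0.00145), with 1.79 once the marked wells were left out. A UMI of Nfkbia was found in 96.2% and 96.6% of thinned co-culture wells and 54.1% and 71.2% of thinned NF0 wells. Nfkbiz (chr16:55811375-55838899), which encodes a nuclear NF-kB regulator, measured 88.3 and 189.8 CPM in co-culture and 18.8 and 23.5 CPM in NF0 (log2 fold change 2.70 ± 0.42, edgeR adjusted p 0.0395).

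In the list of complement, acute phase and cytokine genes, 2 of 20 tested members were called higher (Nfkbia and Ptgs2) and 0 lower by edgeR, 5 and 0 by DESeq2, and 11 and 0 at an unadjusted p under 0.05. Its median log2 fold change was 1.22, with 17 of 20 above 0 where 48.1% of all genes were, and 12 of 20 had both co-culture values above both NF0 values, as 17.7% of all genes did. Ptgs2 (chr1:150100031-150108227), the inducible prostaglandin synthase gene, measured 71.4 and 35.2 CPM against 5.65 and 9.34 CPM (log2 fold change 2.79 ± 0.41, edgeR adjusted p 0.0348). The groups did not overlap, but the 5 richest wells held 66.2% and 66.7% of its UMIs in NF1 and NF2, and without the marked wells it was not called (1.65, edgeR adjusted p 0.167). Ptx3, which encodes a pattern-recognition pentraxin, measured 88.0 and 109 CPM against 47.1 and 30.6 CPM and was not called (log2 fold change 1.36 ± 0.27, edgeR adjusted p 0.113). Il6, the gene of a major inflammatory cytokine, was scarce, at 8.74 and 7.12 CPM against 3.53 and 2.81 CPM (log2 fold change 1.36 ± 0.45, edgeR adjusted p 0.299), and is named here after its values were seen. Serpina3g (chr12:104236245-104241939), a member of a family of near-identical serine protease inhibitor genes whose reads counting could split, measured 28.3 and 37.3 CPM against 6.83 and 5.24 CPM (log2 fold change 2.46 ± 0.39, edgeR adjusted p 0.0412).

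Interferon response genes gave no call by edgeR. Of 35 tested, DESeq2 called 1 higher, 4 were higher and 1 lower at an unadjusted p under 0.05, and their summed level was 221 and 313 CPM in co-culture and 216 and 184 CPM in NF0. The median log2 fold change of the interferon list was 0.35 in neonatal wells, beside 1.66 in adult wells, where 9 members were called higher. The neonatal minus adult difference was called for 0 of the 35. Ifitm3 and Ifitm2, outside this list and named after their values were seen, were not called in neonatal wells. Their neonatal minus adult differences were called (-1.40 and -1.23, edgeR adjusted p 0.0400 and 0.0423). Antigen presentation genes of class I had 0 of 15 called by edgeR and 1 by DESeq2 (3 higher and 2 lower at an unadjusted p under 0.05, median 0.29), and B2m measured 1197 and 917 CPM against 1248 and 1158 CPM.

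The stretch before the start site was read for the called genes that the RefSeq promoter table holds, 16 of the 23 higher and 6 of the 9 lower. The 250 bases upstream of the start are printed below for Cxcl1 and Nfkbia, as the chemokine and the inhibitor with both a called rise and a match to the NF-kB motif, and for Aldh1a1, a called lower gene with a match to the AP-1 motif. Capitals mark the matches, and each sequence reads 5′ to 3′ on the strand of its gene (RefSeq, GRCm38.p6).
Cxcl1 (chr5:90890995-90891244, + strand): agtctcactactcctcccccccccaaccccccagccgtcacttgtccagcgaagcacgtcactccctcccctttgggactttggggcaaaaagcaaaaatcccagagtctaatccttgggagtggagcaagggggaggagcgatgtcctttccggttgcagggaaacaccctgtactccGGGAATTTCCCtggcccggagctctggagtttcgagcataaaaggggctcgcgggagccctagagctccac
Nfkbia (chr12:55492648-55492897, - strand): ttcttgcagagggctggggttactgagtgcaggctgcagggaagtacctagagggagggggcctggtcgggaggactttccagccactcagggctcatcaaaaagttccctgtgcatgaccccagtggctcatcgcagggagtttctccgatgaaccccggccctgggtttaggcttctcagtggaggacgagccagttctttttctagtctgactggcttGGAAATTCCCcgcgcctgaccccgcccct
Aldh1a1 (chr19:20492333-20492582, + strand): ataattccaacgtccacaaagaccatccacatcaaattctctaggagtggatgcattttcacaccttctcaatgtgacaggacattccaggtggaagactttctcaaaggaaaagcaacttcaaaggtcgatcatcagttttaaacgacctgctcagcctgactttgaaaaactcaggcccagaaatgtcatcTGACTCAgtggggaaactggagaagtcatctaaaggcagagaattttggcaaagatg

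Both motifs, NF-kB by its decameric consensus and AP-1 as TGANTCA, were picked after the called genes were known and were searched on both strands of windows from 250 bases before to 50 bases after the start. In Cxcl1 the capitals hold a pair of overlapping NF-kB matches that begin 71 and 70 bases before the start, in Nfkbia 1 match that begins 29 bases before it, and in Aldh1a1 an AP-1 match 57 bases before the start printed here, while the window of the other annotated start of Aldh1a1 held neither motif. An NF-kB match stood in 6 of the 16 higher genes (Cxcl1, Nfkbia, Fosb, Serpina3g, Tmem176a and Tmem176b) and in 2 of the 6 lower genes (Snx21 and Col6a2). The AP-1 match stood in 3 of the 16 (Procr, Olr1 and Mmp10) and in 1 of the 6 (Aldh1a1). Of all 32851 windows of the table, 8.46% held the NF-kB motif and 7.81% the AP-1 motif, and of the tested genes with a window 12.3% and 6.18% did. Tmem176a and Tmem176b share a start region, so their matches are not separate, and Cxcl5, Ccl2, Ccl7, Nfkbiz, Cxcl16, Vcam1, Pecam1, Lox, Plod2 and Ccn5 were not read here.

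Immediate early genes, which encode transcription factors switched on within minutes of a stimulus, lay mostly above NF0. Of 24 tested, edgeR called 1 higher and 0 lower, DESeq2 called 10 and 0, 12 and 0 passed an unadjusted p under 0.05, 19 had a log2 fold change above 0, and the median was 0.70. Fosb (chr7:19302696-19310051), which encodes a subunit of AP-1, measured 47.3 and 45.7 CPM in co-culture and 9.65 and 8.50 CPM in NF0 (log2 fold change 2.36 ± 0.32, edgeR adjusted p 0.0249). The most abundant members were not called, with Klf6 at 155 and 261 CPM against 140.1 and 118 CPM and Junb at 143 and 148 CPM against 70.4 and 78.5 CPM (log2 fold change 0.97 ± 0.19, edgeR adjusted p 0.113).

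Plk2 (chr13:110395046-110400844), which encodes a stress-induced polo-like kinase, rose from 163 and 150.2 CPM in NF0_1 and NF0_2 to 449 and 915 CPM in NF1 and NF2. NF2 stood well above NF1 and both above NF0 (log2 fold change 2.12 ± 0.29, edgeR adjusted p 0.0258). Ccn1 (chr3:145646976-145649981), the gene of a matricellular protein that binds integrins, likewise was highest in NF2, at 223 and 377 CPM in co-culture and 77.5 and 81.9 CPM in NF0 (log2 fold change 1.91 ± 0.24, edgeR adjusted p 0.0190). Vcam1 (chr3:116109949-116129688), which encodes an adhesion receptor for leukocyte integrins and overlaps Gm43109, measured 508 and 448 CPM against 145 and 183 CPM (log2 fold change 1.54 ± 0.21, edgeR adjusted p 0.0249). Without the marked wells, Ccn1 stayed called (1.89, edgeR adjusted p 0.0448), while Plk2 (2.27, edgeR adjusted p 0.0693) and Vcam1 (1.55, edgeR adjusted p 0.117) were not called.

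Adgrf5, Procr, Egfl7 and Pecam1, genes known from endothelial cells, were also called higher. Endothelial marker sums, which include Egfl7 and Pecam1, were higher in co-culture too. Adgrf5 (chr17:43360451-43459557), an adhesion receptor gene, measured 102 and 89.3 CPM in co-culture and 19.1 and 11.5 CPM in NF0 (log2 fold change 2.67 ± 0.35, edgeR adjusted p 0.0249). The 5 richest wells held 74.9% and 95.3% of Adgrf5 UMIs in NF1 and NF2. With wells marked by endothelial or macrophage genes left out, it measured a log2 difference of -0.11 (edgeR adjusted p 0.981).

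Procr (chr2:155751117-155755471), which encodes the endothelial protein C receptor, measured 90.4 and 86.7 CPM against 18.8 and 21.9 CPM (log2 fold change 2.11 ± 0.33, edgeR adjusted p 0.0395), with 1.20 (edgeR adjusted p 0.585) without those wells. Procr was called in 6 of 20 settings, and its log2 fold change was -0.12 in wells with a low cardiomyocyte sum. Egfl7 (chr2:26580014-26593120), the gene of a factor secreted by endothelial cells, measured 31.9 and 25.6 CPM against 3.06 and 4.25 CPM, with 69.8% and 86.9% of its UMIs in 5 wells of NF1 and NF2. Pecam1 (chr11:106654217-106750628), a defining endothelial adhesion gene, measured 22.9 and 28.5 CPM against 2.59 and 4.18 CPM. The calls of Egfl7 (log2 fold change 2.94 ± 0.41, edgeR adjusted p 0.0295) and Pecam1 (2.87 ± 0.44, edgeR adjusted p 0.0395) also ended without the marked wells. Egfl7 then measured 1.53 (edgeR adjusted p 0.623), and Pecam1 had too few UMIs to be tested. Egfl7 and Pecam1 were among the genes that marked the wells left out, so this setting cannot test them independently of the marking. Adgrf5 and Procr were not among the marking genes.

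Wells marked by the 7 endothelial genes numbered 12 of 126 in NF1, 7 of 74 in NF2, 8 of 150 in NF0_1 and 6 of 134 in NF0_2, and those 7 genes summed to 225 and 153 CPM in co-culture and 46.1 and 33.1 CPM in NF0. Of the wider endothelial list, 2 of 13 tested members were called higher (Egfl7 and Pecam1), 6 of 13 had a log2 fold change above 0, and the median was -0.11. Flt1 and Eng, the most abundant members, measured 68.1 and 47.8 CPM against 48.3 and 76.4 CPM and 46.7 and 69.1 CPM against 71.8 and 61.1 CPM, with overlapping groups for Flt1 and Eng. Leaving out the marked wells reduced the 32 calls to 12, of which 11 were among the 32.

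The other called higher genes were scarce or of small difference. Tmem176a (chr6:48840919-48847071) measured 47.0 and 41.1 CPM against 5.65 and 7.82 CPM (log2 fold change 2.67 ± 0.27, edgeR adjusted p 0.00513), and its overlapping neighbour Tmem176b (chr6:48833818-48841496) 183 and 181 CPM against 88.3 and 91.3 CPM (1.02 ± 0.17, edgeR adjusted p 0.0486). This pair of membrane protein genes could share reads. Dnajc10 (chr2:80315466-80354043), which encodes a disulfide reductase of the endoplasmic reticulum, measured 233 and 226 CPM against 103 and 109 CPM (log2 fold change 1.11 ± 0.18, edgeR adjusted p 0.0496). Mmp10, a stromelysin gene, measured 12.1 and 38.5 CPM against 0.235 and 1.06 CPM, but no more than 5 wells of NF1 or NF2 held all of its UMIs. Olr1, the gene of a scavenger receptor for oxidised lipoprotein, rested on 57 UMIs in co-culture and 3 in NF0, also within 5 wells of each co-culture Type value.

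Lox and Plod2, which encode enzymes that modify collagen, were called lower in co-culture. Lox (ENSMUSG00000024529, chr18:52516067-52529867), the lysyl oxidase gene whose product crosslinks collagen and elastin, measured 235 and 373 CPM in NF1 and NF2 and 1063 and 1209.6 CPM in NF0_1 and NF0_2. Both co-culture values lay far below both NF0 values, a log2 difference of -1.90 ± 0.21 (edgeR adjusted p 0.00911). A Lox UMI was found in 53.8% and 70.7% of thinned NF1 and NF2 wells and 93.7% and 99.2% of thinned NF0_1 and NF0_2 wells (unthinned 60.3% and 79.7% and 96.0% and 100.0%). The median well held 70.7 and 165 CPM of Lox in co-culture and 791 and 1079 CPM in NF0. Plod2 (ENSMUSG00000032374, chr9:92542223-92608428), which encodes a lysyl hydroxylase that sets the kind of crosslink, measured 79.6 and 83.0 CPM against 208 and 212 CPM (log2 fold change -1.37 ± 0.21, edgeR adjusted p 0.0395).

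Lox stayed called without the marked wells (-1.83, edgeR adjusted p 0.00853), and Plod2 did not (-1.31, edgeR adjusted p 0.0952). Across 22 crosslinking and collagen processing genes, these were the only calls by edgeR, 0 higher and 2 lower, where DESeq2 called 0 and 5 (0 and 6 at an unadjusted p under 0.05), and the median log2 fold change was -0.36. Both co-culture values lay below both NF0 values in 10 of the 22, against 21.9% of all genes. The list summed to 2213 and 2903 CPM in co-culture and 4069.9 and 4202 CPM in NF0. Serpinh1, the collagen chaperone gene, measured 541 and 678 CPM against 799 and 770.1 CPM, and Loxl2, another lysyl oxidase family gene named after its values were seen, 198 and 299.6 CPM against 469 and 477 CPM; neither was called (edgeR adjusted p 0.510 and 0.176).

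**Figure D3:**
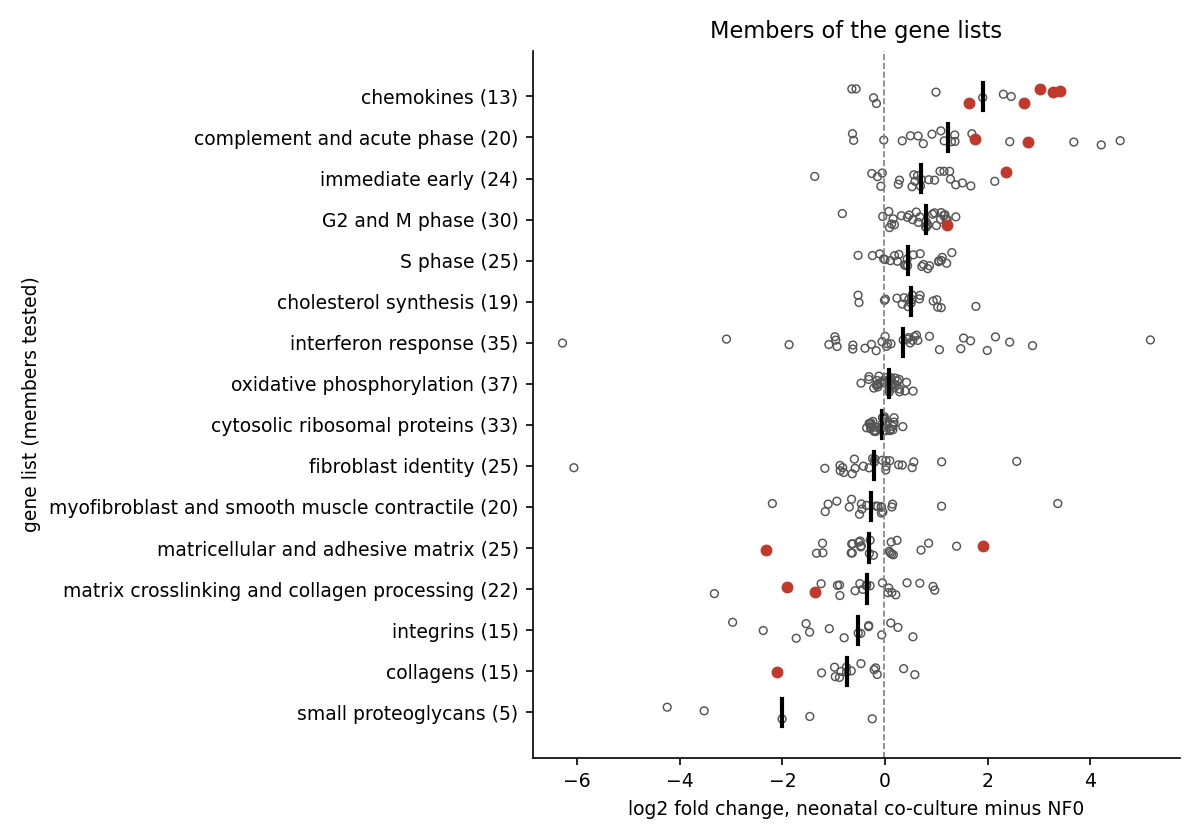
Log2 fold change of each tested member of 16 gene lists between neonatal co-culture and NF0 wells; red points were called, open points were not, and the black bar is the list's median. Chemokines lie farthest right (median 1.90) and small proteoglycans (-2.01) and collagens (-0.75) farthest left, with most single members not called.

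Collagen genes outside the rule lay mostly below NF0, with 1 of 15 called lower and 0 higher by edgeR, 6 and 0 by DESeq2 (7 and 0 at an unadjusted p under 0.05), and 13 with a log2 fold change below 0. Their median was -0.75 in neonatal wells, and 9 of 15 had both co-culture values below both NF0 values, as 21.9% of all genes did. Col6a2 (chr10:76595762-76623630), a chain of the beaded-filament collagen VI, measured 12.4 and 18.0 CPM in co-culture and 73.2 and 56.6 CPM in NF0, a log2 difference of -2.10 ± 0.33 (edgeR adjusted p 0.0412). The most abundant members were not called, with Col4a1 of the basement membrane at 1420.0 and 1644 CPM against 2647 and 2524 CPM (-0.76 ± 0.16, edgeR adjusted p 0.136) and Col5a2 of fibrillar collagen V at 567 and 541 CPM against 1129 and 1045 CPM (-0.97 ± 0.18, edgeR adjusted p 0.0975). Col4a1 overlaps Col4a2 and Col5a2 overlaps Gm38211. The fibrillar collagen I and III genes, which the rule used and which are given without a test, measured 1119 and 1725 CPM against 1682 and 1775 CPM for Col1a1, 699 and 1052 CPM against 957 and 1118 CPM for Col1a2 and 68.4 and 164 CPM against 253 and 216 CPM for Col3a1.

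Small leucine-rich proteoglycans, which space and organise collagen fibrils, had 0 of 5 tested members called by edgeR and 2 called lower by DESeq2, while 4 were lower and 0 higher at an unadjusted p under 0.05. Their median log2 fold change was -2.01, and all 5 were below 0. Dcn and Lum, proteoglycan genes that the rule used, are not among the 5, and Dcn measured 76.0 and 178 CPM against 80.3 and 87.6 CPM. Ogn (osteoglycin) measured 27.1 and 24.3 CPM in co-culture and 86.0 and 57.0 CPM in NF0 (-1.47 ± 0.36, edgeR adjusted p 0.189), whereas Bgn (biglycan), by far the most abundant, measured 464 and 686 CPM against 629 and 738 CPM (-0.25 ± 0.23, edgeR adjusted p 0.728) with overlapping groups. Prelp, named after its values were seen, measured 13.3 and 13.8 CPM against 62.4 and 46.9 CPM (-2.01 ± 0.39, edgeR adjusted p 0.113).

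Matricellular and adhesive matrix genes were called in both directions, with Ccn1 higher and Ccn5 lower among 25 tested (median -0.31). Ccn5 (chr2:163820861-163833146), a family member that lacks the C-terminal module of Ccn1, measured 13.0 and 15.5 CPM in co-culture and 79.4 and 63.1 CPM in NF0, with no overlap. On the log2 scale its difference was -2.33 ± 0.28 (edgeR adjusted p 0.0135), and it stayed called without the marked wells (-2.17, edgeR adjusted p 0.0209). The abundant Fn1 (fibronectin) measured 2084 and 2282 CPM against 2725 and 2676 CPM and Fbln2 (fibulin) 1597 and 2174 CPM against 2742 and 2501 CPM, and neither was called (edgeR adjusted p 0.567 and 0.404). Matrix proteases and inhibitors had 1 of 21 called higher (Mmp10) and 0 lower by edgeR, 2 and 2 by DESeq2 (5 and 5 at an unadjusted p under 0.05), with a median of -0.33; Timp1 measured 1003 and 588 CPM against 935 and 1019.7 CPM.

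The remaining called lower genes were not matrix genes. Aldh1a1 (chr19:20492715-20643465), which encodes an enzyme of retinoic acid synthesis, measured 30.1 and 28.5 CPM in co-culture and 95.4 and 99.4 CPM in NF0 (log2 fold change -1.73 ± 0.25, edgeR adjusted p 0.0325). Cavin2 (chr1:51289126-51302960), a caveola coat gene, measured 204 and 174 CPM against 432 and 451 CPM (-1.22 ± 0.20, edgeR adjusted p 0.0486). Wnk1 (chr6:119923969-120038672), the gene of a kinase that controls ion cotransporters, measured 82.3 and 70.4 CPM against 184 and 194 CPM (-1.31 ± 0.19, edgeR adjusted p 0.0325). In these genes the values within a group lay close together and the groups did not overlap, and without the marked wells the log2 fold changes were -1.63, -1.20 and -1.16, with none of the 3 called (edgeR adjusted p 0.0592, 0.119 and 0.149).

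The loci of Lox, Plod2, Wnk1, Cavin2, Aldh1a1 and Egfl7 each overlap other annotated genes (AC161119.1, Gm38391, Gm16199, 9330175M20Rik, Gm6684 and Agpat2 among them).

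Snx21 and Trim21 rested on few UMIs. Snx21, a sorting nexin gene that overlaps Acot8, had 2 UMIs in co-culture and 317 in NF0. Trim21, the gene of a cytosolic antibody receptor, had 0 UMIs in co-culture and 181 in NF0, so it was at least 21.4-fold lower against a floor of 3 counts over the co-culture group (0.488 CPM against 10.5 CPM). In thinned wells the Trim21 UMIs lay in at most 2.27% of the wells of NF0_1 or NF0_2.

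Genes of the contractile apparatus, adhesion and fibroblast identity showed no call by edgeR. Of 20 myofibroblast and smooth muscle genes 0 were called, DESeq2 called 3 lower, 2 were higher and 8 lower at an unadjusted p under 0.05, and the median was -0.27. Acta2, the smooth muscle actin gene of activated fibroblasts, measured 1502 and 1552 CPM in co-culture and 2433 and 2523 CPM in NF0, a log2 difference of -0.70 ± 0.14 (edgeR adjusted p 0.125). Of 15 integrin genes 0 were called by edgeR or DESeq2 (0 higher and 3 lower at an unadjusted p under 0.05), 10 had both co-culture values below both NF0 values (21.9% of all genes did), and the median was -0.52; Itgb1 measured 2198 and 1731 CPM against 2877 and 2585 CPM. Of 25 fibroblast identity genes 0 were called by edgeR and 1, higher, by DESeq2 (2 higher and 4 lower at an unadjusted p under 0.05), with a median of -0.21, and Vim measured 6671 and 5546 CPM against 7901 and 7269 CPM. S100a4, a calcium-binding protein gene used as a fibroblast marker, measured 934 and 1043 CPM against 1101 and 954 CPM, with overlapping groups.

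Cell cycle genes lay mostly above NF0 in co-culture, with few calls. Among 30 genes of G2 and M phase, 28 had a log2 fold change above 0 (48.1% of all genes) and 18 had both co-culture values above both NF0 values (17.7% of all genes), but edgeR called 1 and DESeq2 5, and the median was 0.79. Cenpe (chr3:135212537-135273611), the gene of a kinetochore motor, measured 149 and 149 CPM in co-culture and 69.2 and 59.9 CPM in NF0 (1.21 ± 0.19, edgeR adjusted p 0.0447), and was called in 4 of 20 settings. Mki67, which marks cycling cells, measured 324 and 228 CPM against 143 and 96.8 CPM (1.21 ± 0.24, edgeR adjusted p 0.125), and Prc1 293 and 175 CPM against 148 and 87.2 CPM (edgeR adjusted p 0.306). Among thinned wells, a Cenpe UMI was found in 28.8% and 37.9% of NF1 and NF2 and 25.2% and 25.8% of NF0_1 and NF0_2 (unthinned 31.7% and 52.7% and 29.3% and 53.0%). With wells that held a Mki67 or Top2a UMI left out, 1 gene was called, Ccl2, from 55 and 16 co-culture wells and 74 and 24 NF0 wells.

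S phase genes had 0 of 25 called by edgeR and 2, higher, by DESeq2 (6 higher and 0 lower at an unadjusted p under 0.05) and a median of 0.44, with Rrm1 at 120.0 and 139.5 CPM against 111 and 148 CPM and Tyms at 137 and 110.2 CPM against 68.8 and 85.0 CPM, the groups overlapping for Rrm1. Cell cycle brakes had 0 of 18 called by edgeR and 4 higher and 4 lower by DESeq2 (5 higher and 4 lower at an unadjusted p under 0.05) and a median of -0.38. Among the brakes, Cdkn1a, which encodes the inhibitor p21, measured 666 and 681 CPM in co-culture and 1173 and 1097 CPM in NF0 (-0.75 ± 0.16, edgeR adjusted p 0.136) and Ccng1 236 and 182 CPM against 349 and 398 CPM (-0.84 ± 0.20, edgeR adjusted p 0.176).

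Metabolic and stress lists had 0 called members by edgeR. Cholesterol synthesis had a median of 0.51 over 19 genes, 16 of them above 0 (4 higher and 0 lower at an unadjusted p under 0.05), and Fdps, which makes farnesyl diphosphate, measured 146 and 272 CPM in co-culture, above both NF0 values (1.77 ± 0.31, edgeR adjusted p 0.0708). The medians were 0.11 for 17 glycolysis genes, 0.07 for 37 of oxidative phosphorylation, -0.11 for 14 hypoxia targets, 0.18 for 17 of the unfolded protein response, 0.02 for 15 heat shock genes and 0.01 for 21 of oxidative stress. For 17 genes of serine and one-carbon metabolism the median was -0.00055, and for 33 cytosolic ribosomal protein genes it was -0.05. DESeq2 called 1 gene each of cholesterol synthesis, the hypoxia targets and the unfolded protein response higher and 1 heat shock gene lower. In the lists other than cholesterol synthesis, between 0 and 2 members were higher and 0 or 1 lower at an unadjusted p under 0.05.

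Signalling lists also had 0 called members by edgeR. The medians were -0.20 for 30 genes of TGF-beta and BMP signalling, -0.04 for 20 Wnt genes, -0.15 for 12 genes of the IGF system and 0.08 for 31 growth factor genes, with 3, 1, 0 and 5 higher and 5, 1, 2 and 1 lower at an unadjusted p under 0.05, and DESeq2 called 0, 0, 0 and 2 higher and 0, 1, 2 and 0 lower. Igfbp2, which encodes a binding protein of insulin-like growth factors, measured 63.6 and 124 CPM in co-culture and 255 and 263 CPM in NF0 (-1.48 ± 0.28, edgeR adjusted p 0.0975). The ligand genes that the study followed were not called in neonatal wells by edgeR or DESeq2, and 0 of the 4 tested outside the rule passed an unadjusted p under 0.05. Cxcl12 measured 206 and 144 CPM against 207 and 188 CPM (-0.17 ± 0.20, edgeR adjusted p 0.801), Lamc1 81.1 and 103 CPM against 110.0 and 152 CPM (-0.51 ± 0.27, edgeR adjusted p 0.513) and Lama2 13.3 and 46.5 CPM against 63.3 and 73.5 CPM (-1.21 ± 0.56, edgeR adjusted p 0.455). Pgf stayed between 4.47 and 9.34 CPM.

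Marker lists of other cells showed 0 edgeR calls apart from the endothelial list, and DESeq2 called 1 epicardial gene. The medians were -0.57 for 20 cardiomyocyte markers outside the rule, -1.04 for 12 macrophage markers, 0.84 for 8 epicardial and mesothelial markers and -0.67 for 6 pericyte and smooth muscle markers. For these lists, 1, 0, 1 and 1 members were higher and 4, 0, 1 and 3 lower at an unadjusted p under 0.05. The cardiomyocyte markers outside the rule summed to 1328 and 1430 CPM in co-culture and 1390 and 1646 CPM in NF0, and the groups overlapped. Of Schwann markers 1 was tested, not called (Schwann sums from 1.51 to 17.8 CPM), and of red blood cell markers 0 (sums from 0.697 to 5.24 CPM). With only the 33, 11, 28 and 12 wells whose cardiomyocyte sum was under 10% of the fibroblast sum, 6 genes were called, Ccl2, Ccl7, Cxcl1 and Lox among them.

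The same contrast in adult wells, AF1 and AF2 against AF0, was fitted beside the neonatal contrast. The Y-linked genes Ddx3y and Eif2s3y measured 43.8 and 20.7 CPM and 18.0 and 19.4 CPM in AF1 and AF2. In AF0_1 and AF0_2 they measured 0.474 and 0.799 CPM and 1.19 and 1.26 CPM, while the neonatal groups overlapped for both genes. Ddx3y and Eif2s3y were both called higher in adult co-culture (log2 fold change 5.53 ± 0.57 and 3.91 ± 0.51, edgeR adjusted p 7.61e-04 and 0.00223). The adult groups thus differed in Y-linked transcripts, and the neonatal minus adult difference was called for both genes. Whether the adult groups differed in their donors was not tested further, which limits all adult values and neonatal minus adult differences below. In the adult contrast, 1277 genes were called (9.18%), 703 higher (5.05%) and 574 lower (4.12%). Of the 23 genes called higher in neonatal wells, 17 had a log2 fold change above 0 in adult wells (50.6% of all genes did), 11 were called higher there and 2 lower, and of the 9 called lower 6 were called lower and 1 higher. Chemokines and Nfkbia were called in both: the adult log2 fold changes were 2.49 ± 0.17 for Ccl2, 3.07 ± 0.20 for Cxcl1, 1.91 ± 0.20 for Ccl7 and 1.83 ± 0.15 for Nfkbia, and none of the neonatal minus adult differences passed the test (0.52 ± 0.23, 0.34 ± 0.26, 0.80 ± 0.27 and -0.08 ± 0.21, with edgeR adjusted p 0.328, 0.584, 0.195 and 0.902). Cxcl5 was far more abundant in adult wells, at 2027 and 2836 CPM in AF1 and AF2 and 286 and 545 CPM in AF0_1 and AF0_2, with an adult log2 fold change of 2.55 ± 0.40 (edgeR adjusted p 0.00516). Lox and Plod2 were lower in adult co-culture too, by log2 fold changes of -2.25 ± 0.21 and -1.66 ± 0.21 (edgeR adjusted p 5.43e-04 and 0.00179), and Ccn5 by -1.73 ± 0.25 (edgeR adjusted p 0.00312).

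**Figure D4:**
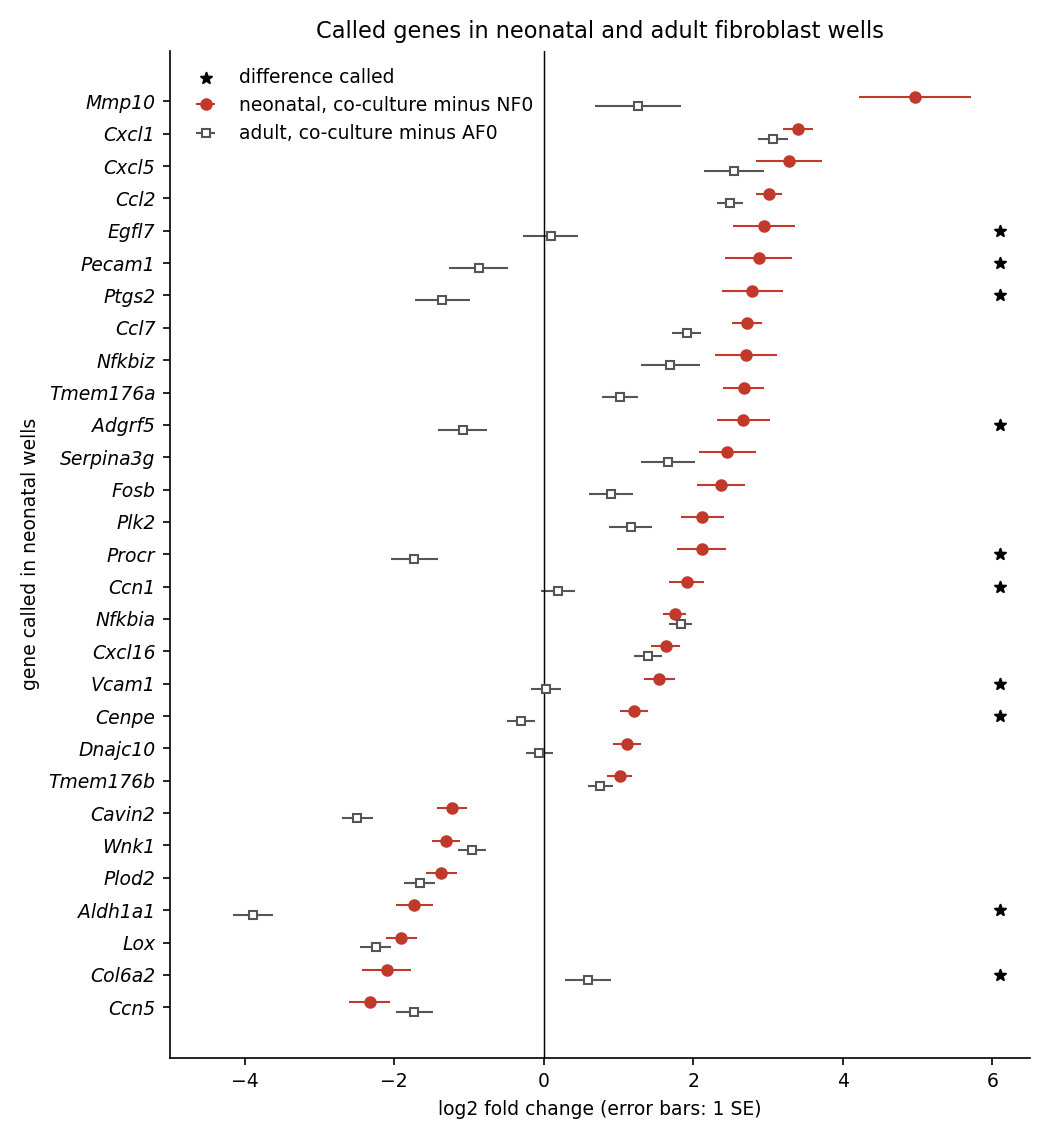
Log2 fold change with 1 SE of the genes called in neonatal wells except Olr1, Snx21 and Trim21, in neonatal wells (red, co-culture minus NF0) and adult wells (grey squares, co-culture minus AF0); a star marks a called difference between the contrasts. Chemokine genes, Nfkbia, Lox and Plod2 lie on the same side of 0 in both, while Vcam1 (1.54 against 0.03), Ccn1 (1.91 against 0.19) and Col6a2 (-2.10 against 0.59) differ.

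The neonatal minus adult difference was called for 124 genes (0.891%), 52 above 0 and 72 below. The count was 333 without NF1, 96 without NF2, 11 without NF0_1 and 12 without NF0_2. Among the 32 neonatal calls, 12 were in that set, 8 of the higher and 4 of the lower. Vcam1 measured 327 and 371 CPM in adult co-culture and 393 and 291 CPM in AF0, with overlapping adult groups (0.03 ± 0.20, difference 1.51 ± 0.29, edgeR adjusted p 0.0445). Ccn1 measured 391 and 439.9 CPM against 368 and 362 CPM in adult wells (0.19 ± 0.23, difference 1.72 ± 0.33, edgeR adjusted p 0.0456). Col6a2 was not lower in adult co-culture, at 52.0 and 51.0 CPM against 35.3 and 33.0 CPM (0.59 ± 0.31, difference -2.69 ± 0.45, edgeR adjusted p 0.0345), and Cenpe was not called there (-0.30 ± 0.19, difference 1.51 ± 0.27, edgeR adjusted p 0.0388). Ptgs2 was called in opposite directions, falling in adult wells from 166 and 146 CPM in AF0 to 47.8 and 74.0 CPM in adult co-culture (-1.36 ± 0.37, edgeR adjusted p 0.0492, difference 4.14 ± 0.55, edgeR adjusted p 0.0131). Aldh1a1 fell in both, but by more in adult wells (-3.89 ± 0.27, difference 2.16 ± 0.35, edgeR adjusted p 0.0329).

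Among the genes with the smallest p for this difference, several were not called in neonatal wells and were called in adult wells. S100a4 had a neonatal log2 fold change of -0.06 ± 0.15 (edgeR adjusted p 0.928), while in adult wells it measured 362 and 314 CPM in co-culture and 2493 and 2688 CPM in AF0 (-2.94 ± 0.16, edgeR adjusted p 7.03e-05), a difference of 2.88 ± 0.22 (edgeR adjusted p 0.00146). Csf1, the macrophage growth factor gene, measured 1176 and 1089 CPM in neonatal co-culture and 943 and 746 CPM in NF0 (0.42 ± 0.16), and 465 and 470.1 CPM against 1675 and 1398 CPM in adult wells (-1.72 ± 0.17), a difference of 2.14 ± 0.23 (edgeR adjusted p 0.0112). Col14a1, a collagen of fibril surfaces, measured 32.3 and 67.9 CPM against 86.7 and 81.2 CPM in neonatal wells and 38.7 and 75.6 CPM against 1.42 and 1.60 CPM in adult wells, a difference of -5.96 ± 0.67 (edgeR adjusted p 0.0112). Upk1b, a mesothelial gene, had 96.7% and 97.6% of its UMIs in 5 wells of NF1 and NF2 and measured 45.2 and 35.2 CPM against 12.2 and 18.3 CPM there, against 5.66 and 1.68 CPM and 224 and 216 CPM in adult co-culture and AF0 (difference 7.32 ± 0.64, edgeR adjusted p 0.00321). Without the marked wells the neonatal log2 fold change of Upk1b was -2.43, against 1.38 ± 0.42 with them, and was called in neither. Collagen medians pointed in opposite directions, -0.75 in neonatal and 0.77 in adult wells, where 5 collagen genes were called higher and 2 lower, and the difference was called for 4 of the 15. Ribosomal protein genes had a median of 0.62 and 14 of 33 called higher in adult wells, against -0.05 and 0 in neonatal wells (0 of 33 also by DESeq2 and at an unadjusted p under 0.05), with the difference called for 2.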

How the data were processed

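Single cells were dispensed into nanowells, and 1 library was sequenced per chip. Per the methods of the study, the authors filtered read pairs on barcode and unique molecular identifier (UMI), trimmed them, removed contaminants, aligned them to mm10 with STAR and assigned them to Ensembl genes with featureCounts. The deposited values are UMI counts per gene and well, not normalized, and use of strand is not given in the sources used here. Wells were assigned to groups by the Type value of the chip report. Mitochondrial genes (34) and 79 spike-in columns were left out of the sums, and 538 genes without a symbol (0.582% of UMIs) stayed in. Doublets were not called.

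UMIs were summed per Type value, genes seen in at least 10 kept wells and passing filterByExpr were fitted with edgeR 4.0.16 in R 4.3.3 (TMM, quasi-likelihood, 4 groups of n = 2, 8 sums), and CPM are TMM-scaled except marker and per-well values. Standard errors are the log2 fold change over the root of F. The neonatal minus adult difference was an interaction contrast of that fit. The scripts were tested on simulated data.

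The members and the 40 gene lists were chosen with earlier results of these data known. Genes named were the called, non-overlapping genes of at least 50 CPM (up to 12 each way), the 2 called members with the largest rise, the 2 with the largest fall and the 2 most abundant members of each list, the genes of the rule, the ligands of the study and the 6 genes of smallest p in the interaction, and the remaining called genes were named after their values were seen. Wells were marked as endothelial or macrophage by at least 3 UMIs and 200 CPM of 7 or 6 markers, an alternative added after seeing the data. The 7 endothelial markers were Pecam1, Cdh5, Kdr, Tek, Tie1, Emcn and Egfl7. The 6 macrophage markers were Ptprc, Csf1r, Adgre1, C1qa, C1qb and C1qc. Other alternatives were scaling (RLE, library size, upper quartile), DESeq2 1.42.0, limma-voom 3.58.1, neonatal wells alone, expression and well filters, thinning, a replicate block and leaving out each Type value. A gene that the naming rule selects is not reported here.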

Additional observations from a re-analysis of the deposited data

Results flagged for a closer look

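The neonatal contrast differed from the adult contrast, by the edgeR interaction test, for 24 of the genes picked by the naming rules or by a neonatal call. Genes of the well rule and genes named for other reasons are not counted. Each value is a log2 difference, neonatal minus adult. Among genes that were called higher in neonatal wells, it was 3.84 for Procr, 3.76 for Adgrf5, 4.14 for Ptgs2, 3.74 for Pecam1, 2.85 for Egfl7, 1.51 for Vcam1, 1.72 for Ccn1 and 1.51 for Cenpe. Among genes called lower in neonatal wells, it was -11.65 for Trim21 and -5.24 for Snx21, both on few UMIs and dependent on the prior count, -2.69 for Col6a2 and 2.16 for Aldh1a1. Without the wells marked by endothelial or macrophage genes the value for Egfl7 was -0.81. Egfl7 was among the genes that marked those wells, so that setting is not a separate check of its direction. In adult wells, leaving out the marked ones kept 105 of 124 in AF1 and 105 of 115 in AF2. In AF0_1 it kept 46 of 76 and in AF0_2 75 of 115, so a larger share of AF0 wells was marked. The values for Procr, Adgrf5, Pecam1 and Egfl7, genes known from endothelial cells, are to be read with that limit.

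The other genes were not called in neonatal wells. The difference was 2.88 for S100a4, 7.32 for Upk1b, 2.14 for Csf1, 3.87 for 9930111J21Rik2, 2.60 for Igfbp2, 1.71 for Ankrd1 and 1.06 for Hsp90aa1, and in each of these the adult log2 fold change was below 0. It was -5.96 for Col14a1, -3.28 for Cspg4, -2.81 for Ogn, -1.07 for Rps14 and -1.44 for Id3, and in each of these the adult log2 fold change was above 0. Ogn measured 27.1 and 24.3 CPM against 86.0 and 57.0 CPM in neonatal wells and 66.0 and 82.2 CPM against 20.6 and 37.3 CPM in adult wells, so the groups lay in opposite order (edgeR adjusted p of the difference 0.0394). The cause of these differences was not tested.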

How the results depend on the processing

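Counts of called genes, of called neonatal minus adult differences and of called list members were 32, 124 and 17. Over the fits without 1 Type value they ranged from 3 to 61, 11 to 333 and 3 to 19, with the lone Type value assumed to vary like the other groups. They were 325, 650 and 76 with DESeq2; 10, 156 and 7 with limma-voom; 50, 293 and 28 with genes over 20 CPM; 14, 73 and 9 with the well filter of the study; 6, 15 and 6 with a low cardiomyocyte sum; 20, 143 and 12 with no cell type condition; 66, 230 and 36 with thinned wells; 12, 60 and 10 without endothelial or macrophage wells; and 52, 262 and 29 with the mean CPM per well. Neonatal Type values alone gave 4 called genes and 4 list members, and wells without Mki67 and Top2a gave 1 and 1. Scaling or no expression filter gave between 26 and 32 called genes, and library size alone moved the median of all genes to -0.13.

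Type values with the same replicate number did not deviate together (correlations from -0.0438 to 0.0143). With a replicate block, 14 genes (12 higher, 2 lower), 73 differences and 10 list members were called. Among called values, directions reversed for Adgrf5 (-0.11) and the Egfl7 difference (-0.81) without endothelial or macrophage wells, and for Procr (-0.12) and Mmp10 (-4.13) with a low cardiomyocyte sum, where Olr1 had a log2 fold change of 0. Egfl7 was itself among the genes that marked the endothelial wells. Upk1b, not called, turned to -2.43 without endothelial or macrophage wells. The cause was not tested. Over the settings, log2 fold changes of single named genes kept their call, or stayed uncalled and within 1 SE, in 1568 cases. In 179 cases they stayed uncalled but shifted by at least 1 SE. The call was lost in 290 cases and gained in 32. With 2 Type values a group, and medians from 14664 to 70873 UMIs a well, scarce genes were measured least precisely.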
